A study of Mus musculus with 6 samples.

Results

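The genes described here kept a higher level in 1 of 3 libraries of mouse oligodendrocyte (OL) precursor cells (mOPCs) transfected with siRNA against Qk (siQk) than in the other siQk libraries. The cells were purified by immunopanning from embryos of embryonic day 14.5, with no strain named, and all 6 libraries were collected 72 h after transfection. The labels give 3 libraries from cells that received control siRNA (siNC) and 3 from cells that received siRNA for the Qk gene, and the notes on extraction name 3 different siRNAs for Qk. Which siRNA each siQk library received is not given in the sources used here, so that the siRNA, the culture and the library cannot be told apart, and an SD over the siQk libraries may hold differences between siRNAs. Members were chosen from the deposited RPKM, a level per length of exon that is also scaled to the depth of its library. A member had a mean of at least 2 RPKM over the siNC libraries and lay in each siNC library above both siQk replicate 1 and siQk replicate 3. In siQk replicate 2 it lay at 1.5 times the larger of those siQk values or more, and Qk itself was left out. This left 11 of 23038 genes: Snap23, Rab7l1, Fkbp7, Sepp1, Fxyd7, Dock6, Rnf165, Fam70a, Gm5918, 1110019D14Rik and Rmrp. The values of all 6 libraries thus chose the members, and a level of siQk replicate 2 above replicates 1 and 3, or of siNC above those, is a description and no finding.

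Qk encodes the Quaking proteins, RNA-binding proteins of the STAR family that recognise ACUAA followed by C or U in RNA and act on the splicing, stability and transport of mRNAs. In the OL lineage they are known for their part in differentiation and myelination. Qki5 is mainly nuclear, while Qki6 and Qki7, which differ from it at the C-terminal end, are also found in the cytoplasm. An siRNA lowers its intended transcript by cleavage and can also lower other transcripts that match its seed, so that several siRNAs against a gene are often used side by side.

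The library totals ranged from 58166490 tags in siNC replicate 1 to 141045937 in siQk replicate 1, and siQk replicate 2 was the smallest siQk library with 82701288 tags. The ribosomal RNA gene Rn45s took 3.12% of the tags in siNC replicate 1, against 0.169% to 0.389% in the other libraries. The factors that TMM normalization, a scaling by the bulk of genes, gave to the libraries were 0.899 to 0.987 in siNC and 1.04 to 1.07 in siQk, and RPKM carries no such factor. The 12 OPC markers summed to between 1094 and 1511 RPKM per library, whereas no fibroblast or vascular marker exceeded 0.390 RPKM. In bulk RNA, fewer cells of a type and less RNA per cell cannot be told apart.

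The target transcript was lowered in every siQk library, to different extents. Qk was at 209, 206 and 163 RPKM in siNC replicates 1, 2 and 3 and at 51.3, 76.6 and 36.2 RPKM in siQk replicates 1, 2 and 3. The groups did not overlap (192.9 ± 25.9 against 54.7 ± 20.4 RPKM, SD, n = 3 each; two-sided exact permutation p = 0.1, and 3 libraries against 3 cannot give a smaller one). On the log2 scale Qk changed by -1.98 (standard error 0.28), with an FDR of 0.00311 in the quasi-likelihood test of edgeR. As a share of the siNC mean, 26.6% of Qk remained in siQk replicate 1, 39.7% in replicate 2 and 18.8% in replicate 3. Replicate 2 therefore held 1.49 times the Qk level of replicate 1, and replicate 1 held 1.42 times that of replicate 3. Qk would have missed the threshold of 1.5 by this ratio, just below the lowest member.

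Among the members with a role in membrane traffic, Snap23 was the most abundant, and of the 3 members with a ratio above 2 it was the one that rested on the most tags. Snap23 (Entrez gene 20619, chromosome 2 of GRCm38 from 120567655 to 120601255) encodes a SNARE protein of the plasma membrane that takes part in the fusion of vesicles in many cell types. Its level was 24.3, 26.4 and 28.0 RPKM in siNC replicates 1, 2 and 3, and 7.90, 20.2 and 5.86 RPKM in siQk replicates 1, 2 and 3. The siNC libraries lay close together, siQk replicate 2 stood at 76.9% of their mean, just below the lowest of them, and siQk replicates 1 and 3 at 30.1% and 22.3%. The level in siQk replicate 2 was 2.55 times that in replicate 1 (95% exact interval 2.43 to 2.69, from 3709 and 2476 tags). Such intervals cover counting error only, not the spread between cultures.

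Values of other genes of the same machinery are given beside Snap23, and were picked after its values had been seen. Its homolog Snap29 was at 21.7 ± 1.61 RPKM in siNC against 21.6 ± 0.267 RPKM in siQk (SD, n = 3 each). Snap47 was at 38.3 to 43.2 RPKM in the siNC libraries and 51.8 to 53.7 RPKM in the siQk libraries. It was called higher (log2 fold change 0.19, standard error 0.05, edgeR). Snap25, a SNARE gene of neurons, was called higher (log2 fold change 2.64, standard error 0.32, edgeR), from 0.641, 0.886 and 0.725 RPKM in siNC to 4.63, 3.35 and 7.57 RPKM in siQk replicates 1, 2 and 3, lowest of the siQk libraries in replicate 2. Of 17 further syntaxin, Vamp and SNARE-associated genes with a siNC mean of at least 2 RPKM, none reached a ratio of siQk replicate 2 to the larger of replicates 1 and 3 above 1.15. Stxbp3a, which encodes a syntaxin-binding protein, had 19.6 to 23.1 RPKM in siNC and 9.46, 8.87 and 10.1 RPKM in siQk replicates 1, 2 and 3, so that a lowered gene of this machinery could also be even across the siQk libraries.

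Rab7l1 (chromosome 1 from 131867210 to 131872887), which RefSeq lists as Rab29, encodes a small GTPase of the Golgi and endolysosomes that is known as a partner of the kinase Lrrk2. It was the member closest to the threshold, with a ratio of 1.503 (95% exact interval 1.28 to 1.76). Its level was 2.16, 2.30 and 3.04 RPKM in siNC and 2.05, 3.14 and 2.09 RPKM in siQk replicates 1, 2 and 3. In siQk replicates 1 and 3 it lay barely under the lowest siNC library, and in replicate 2 above the highest. Lrrk2 itself had 1.30 to 1.46 RPKM in siNC and 0.439 to 0.571 RPKM in siQk, a gene below the minimum level of the rule.

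A pair of members act in the secretory pathway. Fkbp7 (Entrez gene 14231, chromosome 2 from 76663034 to 76673098) encodes a peptidyl-prolyl isomerase that assists protein folding in the endoplasmic reticulum. It was at 2.95, 3.56 and 5.90 RPKM in the siNC libraries and at 2.31, 5.50 and 2.0 RPKM in siQk replicates 1, 2 and 3. In siQk replicate 2 it lay within the siNC range, with 2.38 times the level of replicate 1 (95% exact interval 2.09 to 2.71). Of 11 other Fkbp genes at or above 2 RPKM in siNC, the highest such ratio was 1.17, for Fkbp14.

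Sepp1 (chromosome 15 from 3270767 to 3280510), now named Selenop, encodes a secreted protein that carries selenium to other cells. Its siNC libraries were uneven, at 9.80, 21.7 and 9.79 RPKM, against 5.79, 9.32 and 5.52 RPKM in siQk replicates 1, 2 and 3. The siQk replicate 2 library stood at 0.952 times the lowest siNC library, so that the groups just failed to overlap. Among 11 other selenoprotein and related genes at or above 2 RPKM in siNC, the ratio ran from 0.863 to 1.18.

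The members with roles at the membrane and in signalling differed in how much they kept. Fxyd7 (Entrez gene 57780, chromosome 7 from 31042515 to 31051454) encodes a brain regulator of the sodium-potassium pump. It was at 5.78, 7.41 and 8.54 RPKM in the siNC libraries and at 1.81, 3.09 and 1.99 RPKM in siQk replicates 1, 2 and 3. Every siQk library lay well below every siNC library, and siQk replicate 2 kept 42.6% of the siNC mean, close to the 39.7% that Qk kept there. The ratio of 1.55 rested on 173 and 171 tags (95% exact interval 1.24 to 1.92). Fxyd7 was the member with the least left in siQk replicate 2.

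At the other end, Dock6 (Entrez gene 319899, chromosome 9 from 21800180 to 21852718) encodes an exchange factor that activates the small GTPases Rac1 and Cdc42. Its levels were 2.87, 1.88 and 2.41 RPKM in siNC and 1.53, 3.29 and 1.79 RPKM in siQk replicates 1, 2 and 3. Replicate 2 was the highest of the 6 libraries, at 138% of the siNC mean. No other Dock gene of the 8 at or above 2 RPKM had a ratio above 0.995, and Dock9, with 31.3, 22.9 and 40.9 RPKM in siQk replicates 1, 2 and 3, was lowest in replicate 2.

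Rnf165 encodes a ubiquitin ligase that is known to enhance BMP signalling in neurons. It was at 3.10, 5.25 and 2.79 RPKM in the siNC libraries and at 1.84, 3.35 and 1.42 RPKM in siQk replicates 1, 2 and 3, with siQk replicate 2 inside the siNC range. Fam70a, now named Tmem255a, lies on the X chromosome from 38196573 to 38252496 and encodes a transmembrane protein. It was at 4.73, 6.91 and 9.997 RPKM in the siNC libraries and at 4.36, 7.90 and 4.02 RPKM in siQk, again with replicate 2 inside the siNC range. Its annotation overlaps that of Zbtb33 on the opposite strand by 474 bases, and Zbtb33 held between 15.1 and 16.2 RPKM in all 6 libraries.

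The remaining members are Gm5918 and the sparsely covered 1110019D14Rik and Rmrp, whose ratios have the widest counting intervals of the members. Gm5918 (chromosome 9 from 72979724 to 72985376), which RefSeq names Ccpg1os, lies in antisense to a coding gene model, Gm44503, and reads from the strands cannot be told apart where the counting is not stated to use strand. It was at 5.46, 6.82 and 10.5 RPKM in the siNC libraries and at 4.53, 7.40 and 4.61 RPKM in siQk replicates 1, 2 and 3, within the siNC range in replicate 2. The long noncoding RNA 1110019D14Rik (chromosome 6 from 13871569 to 13896421), with 109 bases of exon, had only 18 to 55 tags per library. It was at 3.16, 3.06 and 3.82 RPKM in siNC replicates 1, 2 and 3 and at 1.69, 3.22 and 1.31 RPKM in the siQk replicates, with replicate 2 within the siNC range. Its ratio of 1.90 had a 95% exact interval of 1.08 to 3.36, which reaches well under the threshold of 1.5.

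Rmrp (chromosome 4 from 43492785 to 43493059), the RNA subunit of the RNase MRP complex that trims ribosomal RNA precursors, is made without a poly(A) tail and is not a usual template of libraries selected for poly(A). It had 152, 33 and 40 tags in siNC and 29, 55 and 12 tags in siQk replicates 1, 2 and 3, or 9.50, 1.08 and 1.10 RPKM against 0.748, 2.42 and 0.345 RPKM. Without siNC replicate 1, the library with the high share of Rn45s, its siNC mean falls under 2 RPKM and Rmrp is no member. Rpph1, the RNA subunit of RNase P, was likewise high in siNC replicate 1 and siQk replicate 2, at 1.53, 0.722 and 0.466 RPKM in siNC replicates 1, 2 and 3 and 0.349, 1.30 and 0.657 RPKM in the siQk replicates. Rn45s was also highest in siNC replicate 1 and siQk replicate 2 within the groups. Other RNAs without such a tail shared this in part. Scarna2 was also highest in siNC replicate 1, at 5.64, 1.33 and 0.745 RPKM in siNC replicates 1, 2 and 3. In siQk replicates 1, 2 and 3 it was at 0.465, 0.595 and 1.04 RPKM. Snord4a was at 2.46, 2.06 and 1.73 RPKM in siNC replicates 1, 2 and 3. Of the siQk libraries it was lowest in replicate 2, at 2.07 RPKM. Scarna6 was highest in siQk replicate 2 but lowest in siNC replicate 1, at 0.439 and 0.0693 RPKM. Of the 275 bases of Rmrp, 164 lie opposite Ccdc107, which was at 19.7 to 33.1 RPKM. The part of these features in the values of Rmrp was not tested.

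**Figure D1:**
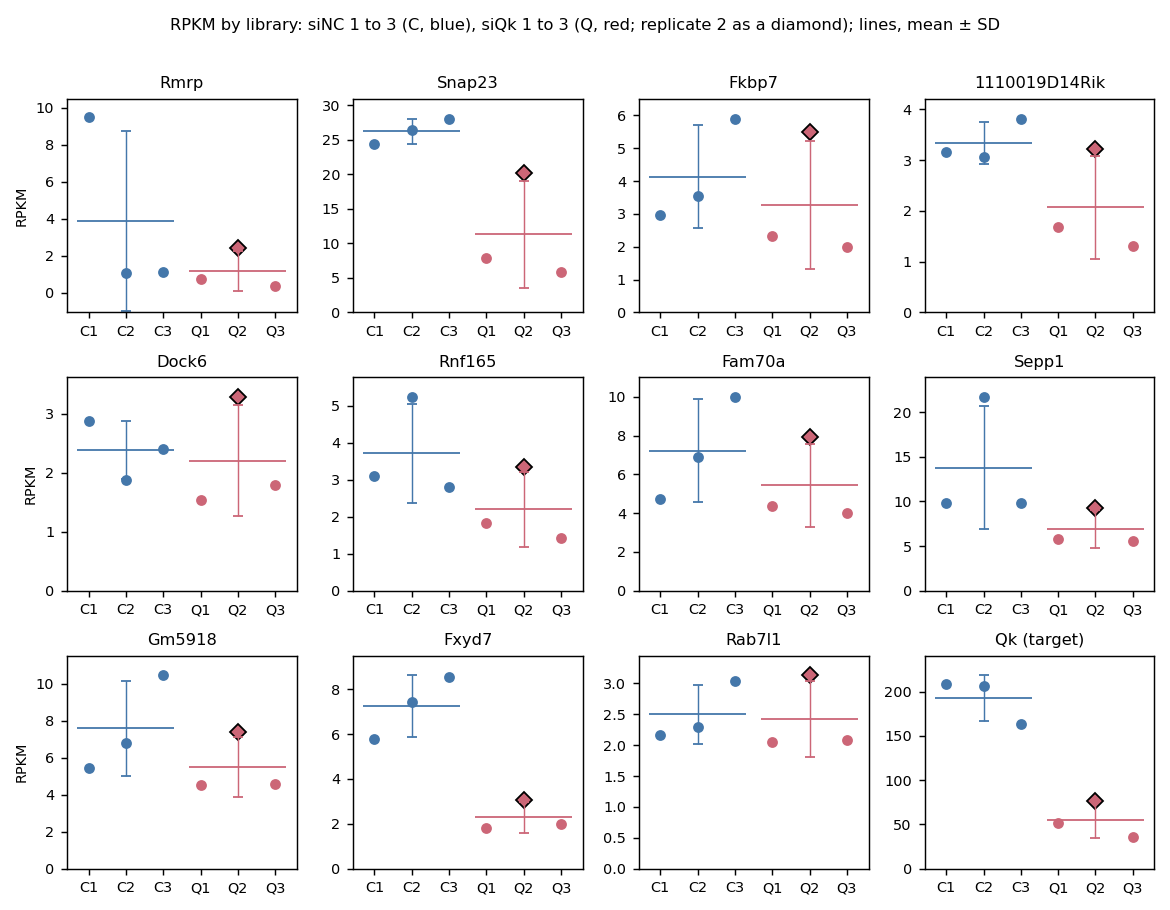
RPKM (y axis, a scale per panel) of the 11 members and of Qk in each library (x axis), with siNC replicates 1 to 3 in blue, siQk replicates 1 to 3 in red and siQk replicate 2 as a diamond, and lines for the mean ± SD of 3 libraries. The diamond lies inside or above the siNC points for 8 members and below all of them for Snap23, Sepp1, Fxyd7 and Qk.

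Where siQk replicate 2 lay against siNC was set in part by the rule, and is a description. It was below the siNC range for 3 members (Snap23, Sepp1 and Fxyd7), within it for 6 and above it for 2 (Dock6 and Rab7l1), so that the groups overlapped for 8 members. For 6 of these, Rmrp, Fkbp7, Dock6, Fam70a, Gm5918 and Rab7l1, the fold of 1.5 itself forced the overlap, because their lowest siNC library was less than 1.5 times the larger of siQk replicates 1 and 3. Of the 5 members left free, 1110019D14Rik and Rnf165 overlapped and Snap23, Sepp1 and Fxyd7 did not. Of the 12505 genes tested with edgeR, 16.4% had siQk ranges wholly below siNC, and nothing is read from the count of members beside it. The members kept a median of 96.2% of their siNC mean in siQk replicate 2, from 42.6% for Fxyd7 to 138% for Dock6, against the 39.7% of Qk. These shares are raised by the rule as well. In siQk replicate 1 the median was 50.5% and in replicate 3 it was 40.1%. For the 1999 genes that met every part of the rule but the fold, members included, the medians were 71.3%, 72.8% and 72.5% in siQk replicates 1, 2 and 3.

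Across the siQk group as a whole, 9 members passed the filter on low counts, an average logCPM over 0, and Rmrp and 1110019D14Rik did not. Of the 9, only Fxyd7 was called lower (log2 fold change -1.82, standard error 0.24) and none was called higher, where a call needed P below 0.01 and FDR below 0.1 in edgeR's quasi-likelihood test. In the same fit 17.2% of the 12505 tested genes were called lower and 31.0% were called in either direction. The rule used this contrast, so that nothing is read from the count. Their median log2 fold change was -0.61, against 0.010 over all tested genes. For Snap23 it was -1.37 (standard error 0.43) with all libraries and -2.07 (standard error 0.14) without siQk replicate 2, where Snap23 and Rnf165 were called lower as well.

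Whether members followed the residual Qk level was described by the order of siQk replicates 1 and 3, which the rule leaves free. Qk stood at replicate 2 over 1 over 3. In 7 of the 11 members replicate 1 was above replicate 3, as for Qk, and in 4 it was not. Among the 1999 genes that met all but the fold, replicate 1 was above replicate 3 in 44.0%. The rule also puts replicate 2 above both others in every member, and 896 of the 1999 genes had this. Of these 896 genes, the nearer comparison, 494 had the full order of replicate 2 over 1 over 3. That was the larger part of them, as 7 of 11 was of the members, so nothing is read from the 7. No test was made of these counts.

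By counting error alone, 4 members had more in siQk replicate 1 than in replicate 3, 1 had less and 6 could not be told apart. Snap23 was nearest to Qk in this respect, with 1.35 times as much in replicate 1 as in replicate 3 (95% exact interval 1.27 to 1.44), while Qk had 1.42 times. Rnf165 had a ratio of 1.29 (1.21 to 1.38), Fam70a of 1.08 (1.02 to 1.16) and Rmrp of 2.17 (1.07 to 4.66), the last from 29 and 12 tags. Dock6 went the other way, at 0.855 (0.799 to 0.916). Fkbp7, at 1.16 (0.994 to 1.34), and Sepp1, at 1.05 (0.979 to 1.12), were nearly level between replicates 1 and 3, although Qk differed between them.

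**Figure D2:**
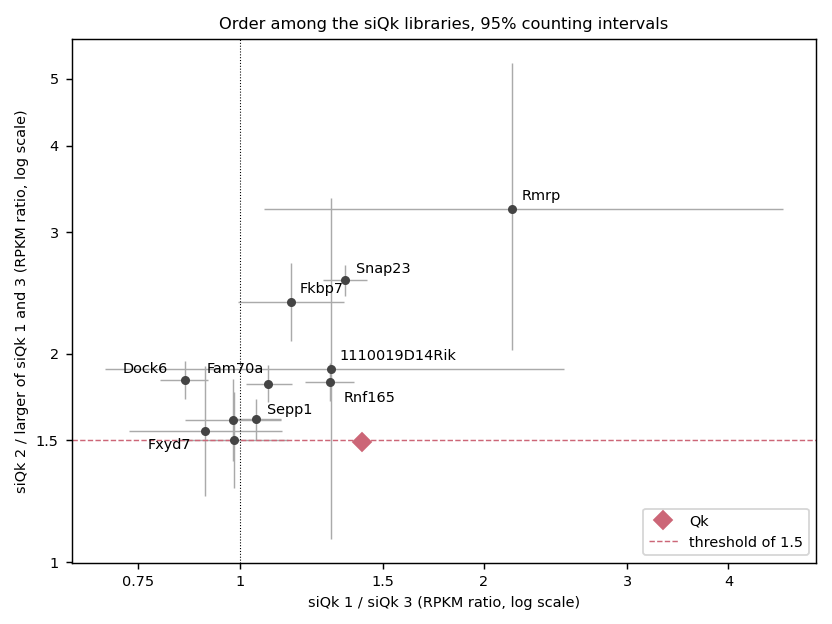
Ratio of siQk replicate 2 to the larger of replicates 1 and 3 (y axis, log scale) against the ratio of siQk replicate 1 to replicate 3 (x axis, log scale) for the 11 members, with 95% exact counting intervals, and for Qk as a red diamond. Snap23 and Rmrp lie far above the threshold of 1.5 and right of 1 on the x axis, while Dock6 lies left of 1 at 0.855.

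The same rule was applied with each of the other siQk libraries in the place of replicate 2, an addition made after the members had been seen. With replicate 1, which kept 26.6% of Qk, it gave 0 of 1846 genes that met all but the fold. With replicate 3, which kept the least Qk (18.8%), it gave 44 of 2017 genes, against 11 of 1999 with replicate 2. These counts come from 3 libraries that also differ in depth, so nothing is read from their order beside that of Qk. They share the siNC libraries and were not tested against each other.

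No gene was spared in both replicate 2 and replicate 3. The 44 genes of replicate 3 kept a median of 31.8%, 23.6% and 52.8% of their siNC mean in siQk replicates 1, 2 and 3, and 35 of the 44 were lowest in replicate 2. The same share over the 2017 genes was not counted. Replicate 2 was also the low library more often among all genes, as given below, so nothing is read from this count. They hold 4 of the 24 committed and mature OL genes in the files, which were Mbp, Mag, Mobp and Nfasc. Mbp, the gene of myelin basic protein, was at 233, 209 and 86.5 RPKM in the siNC libraries and at 31.9, 18.2 and 78.0 RPKM in siQk replicates 1, 2 and 3. The members spared in replicate 2 hold 0 of these OL genes. Only 12 of the 1999 genes that met all but the fold for replicate 2 are in this list. Nothing is therefore read from the difference between the sets.

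**Figure D3:**
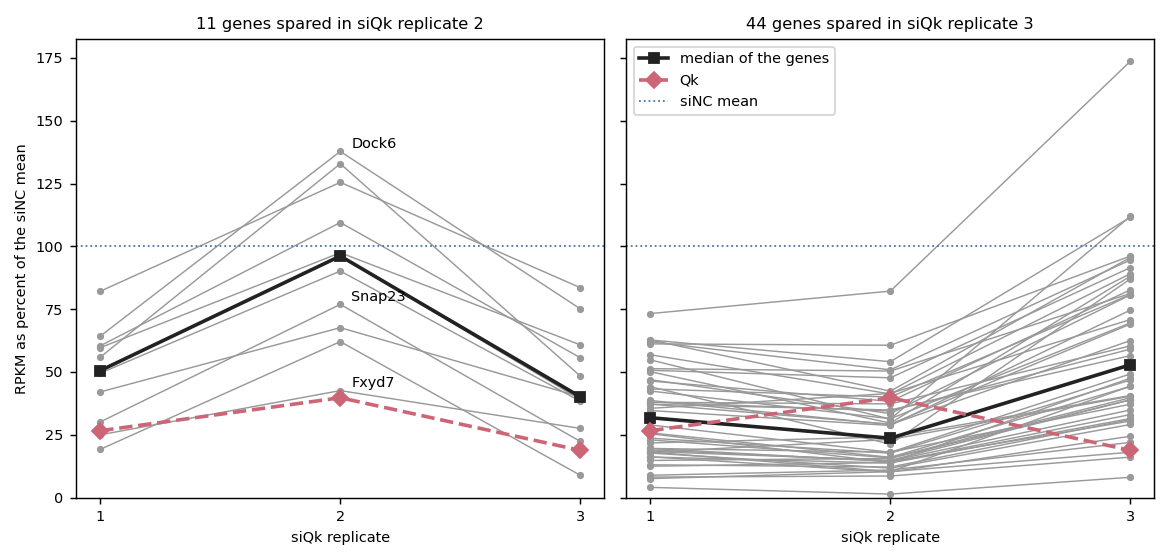
RPKM as a percent of the siNC mean (y axis) in siQk replicates 1, 2 and 3 (x axis) for the 11 genes spared in replicate 2 (left) and the 44 spared in replicate 3 (right), with a grey line per gene, the median in black and Qk in dashed red. Qk peaks in replicate 2 in both panels, and the median of the 44 genes is lowest there, at 23.6%.

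Over all 10484 genes with a siNC mean of at least 2 RPKM, whatever their siNC order, siQk replicate 2 was at least 1.5 times above both other siQk libraries for 16 genes and at least 1.5 times below both for 105. For replicate 3 these counts were 69 above and 28 below, and for replicate 1 they were 9 and 4. Replicate 2 was thus more often the low library than the high one. Among genes raised in siQk replicates 1 and 3 over every siNC library, 32 were held back by the same factor in replicate 2. With replicate 3 in that place the count was 59, and with replicate 1 it was 2.

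**Figure D4:**
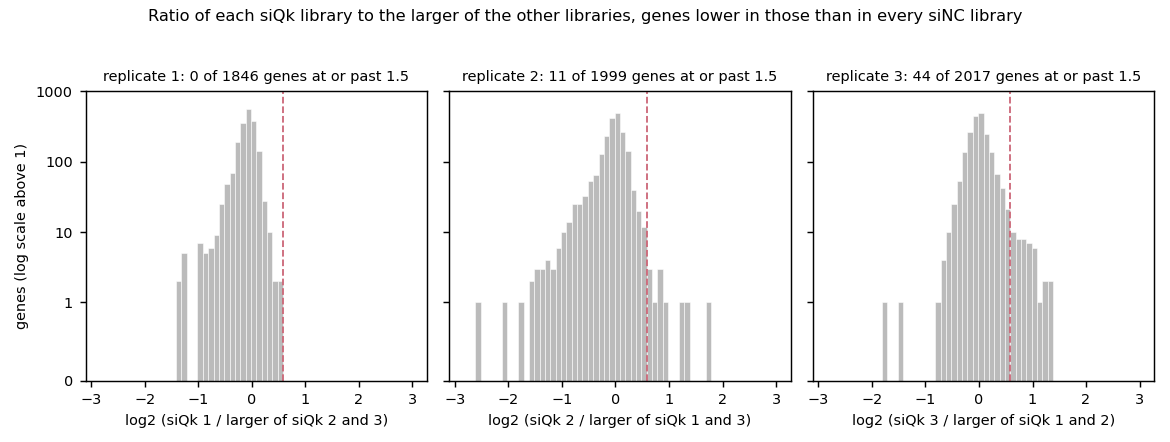
Number of genes (y axis, log scale above 1) by the log2 ratio of 1 siQk library to the larger of the other siQk libraries (x axis), for genes with a siNC mean of at least 2 RPKM that lay below every siNC library in those others, with the threshold of 1.5 dashed. Past the line lie 0 genes for replicate 1, 11 for replicate 2 and 44 for replicate 3, and the left tail is longest for replicate 2.

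For replicate 2, the ratio over the 1999 genes had a median of 0.988, a 5th percentile of 0.657, a 95th of 1.197 and a 99th of 1.41. Genes just outside the threshold included Myo9b (1.49), Decr1 (1.46), Igfbpl1 (1.45) and Plscr4 (1.43). Just inside were Rab7l1 (1.503), Fxyd7 (1.55), Gm5918 (1.60), Sepp1 (1.61) and Fam70a (1.81). The interval from counting error lay wholly above 1.5 for 7 of the 11 members and wholly above 1 for all 11. Gm5918, Fxyd7, Rab7l1 and 1110019D14Rik were the members whose interval reached below 1.5.

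None of the 11 members belonged to any of the 22 gene lists, 6 of cell type markers and 16 of pathways. No list held more than 12 of the 1999 genes that met all but the fold. With so few such genes in the lists, nothing is read from the absence of members. The committed and mature OL genes summed to 8052, 6756 and 4845 RPKM in siNC and to 2829, 2480 and 3443 RPKM in siQk replicates 1, 2 and 3, lowest in replicate 2. Of the 22 tested genes of this list, 13 were called lower and 0 higher, and 0 of the 18 at or above 2 RPKM in siNC were higher in siQk replicate 2 than in both other siQk libraries. The OPC markers summed to 1383, 1511 and 1345 RPKM in siQk replicates 1, 2 and 3, highest in replicate 2, and 4 of 12 were called higher and 1 lower. The cell cycle genes, of which 15 of 20 were called higher, summed to 370, 281 and 211 RPKM in siQk replicates 1, 2 and 3, while no siNC library exceeded 147 RPKM. Background shares were 17.2% called lower and 13.8% called higher.

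Markers of other cell types were at different levels. The fibroblast and vascular markers summed to at most 0.630 RPKM in any library, with Cldn5 at 0. Of the 10 microglia markers, C1qa and C1qb were at 0 and 7 in all, these included, stayed under 0.5 RPKM in every library. Astrocyte markers summed to 328, 345 and 353 RPKM in siQk replicates 1, 2 and 3 and to 369 to 505 RPKM in siNC. Neuron markers summed to 174, 139 and 181 RPKM in siQk, lowest in replicate 2, and the highest level in any library was 166 RPKM for Tubb3, 44.3 for Elavl3, 20.9 for Dcx and 13.8 for Elavl4, while Slc17a6 was at 0 and Stmn2 at or below 0.0439 RPKM. The part of these shifts in the levels of the members was not tested.

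The members also differed from the other lowered genes in level and evenness. Their siNC means ran from 2.39 to 26.2 RPKM with a median of 4.14, against a median of 20.1 RPKM for the 1999 genes. The highest siNC library was a median of 1.88 times the lowest for members and 1.202 times for the 1999 genes, from 1.15 for Snap23 to 8.77 for Rmrp. Of the 11 members 7 were highest in siNC replicate 3, as were 38.8% of the 1999 genes. Their exons had a median length of 1233 bases, and 3241 bases was the median of the 10484 genes with at least 2 RPKM. They lay on 9 chromosomes, 9 of them are protein coding, and no test was made of these descriptions.

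The motif that Quaking proteins bind was looked for in the 3'UTRs, because it is a feature of the transcript that no level enters. Written as DNA, ACTAAC or ACTAAT on the transcript strand was searched in the longest annotated 3'UTR of at least 50 bases of each gene. Of 9 members with such a 3'UTR, 3 held the motif (33.3%), which were Rnf165 with 3 copies, Fam70a with 1 and Gm5918 with 1. It was present in 54.3% of the 1905 other genes that met all but the fold, in 37.2% of the 9994 genes with a siNC mean of at least 2 RPKM, and in 37.5% of the 40 genes spared in replicate 3. Per kilobase these sets held 0.360, 0.482, 0.334 and 0.415 copies. The median 3'UTR was 798 bases for members and 1736 bases for the other lowered genes, and a longer 3'UTR has more room for a match.

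The 1914 bases of the Snap23 3'UTR held 0 copies, as did those of Fkbp7, Dock6, Sepp1, Fxyd7 and Rab7l1. A match is a description and no match says only that these letters were not in that window. The sites of Fam70a and Gm5918 are shown because they are matches behind this count, beside the first of 5 in the 3'UTR of Qk, with the motif in capitals and 5′ to 3′ on the minus strand of GRCm38.
Fam70a, chrX:38197832-38197861, 3'UTR: gcttcaaaaaggACTAATaatcaattgact
Gm5918, chr9:72979772-72979801, 3'UTR: aagtctagaacaACTAATtttgagcatttg
Qk, chr17:10206538-10206567, 3'UTR: taataccaacctACTAACtctggactatgt
Of the 5 sites of Qk, the first and second end in C and the others in T, as those of Fam70a and Gm5918 do. The ratio of siQk replicate 2 was 1.82 for Rnf165, 1.81 for Fam70a and 1.60 for Gm5918. For members whose 3'UTR held no match it ran from 1.503 for Rab7l1 to 2.55 for Snap23. A link between the motif and the ratio was not tested.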

How the data were processed

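RNA of mOPC cultures was measured in 6 libraries. The authors selected poly(A) RNA with a TruSeq kit, used OLego to align the read pairs (mm10) and Quantas to count tags on genes. Tool versions and the annotation behind the counts are not given in the sources used here. The authors deposited, for each gene and library, an RPKM, an exon length and an expected count, the tag number, some of it fractional. RPKM recomputed from the tag number, exon length and library total differed by at most 1e-11. Members, lists and comparisons were chosen with earlier results of these data known, and the genes named are the members, Qk, the genes just outside the threshold and those of families picked after the values were seen. A gene just outside the threshold and the summed level of the microglia markers are not reported here.

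Expected counts were rounded and tested with edgeR 4.0.16 (limma 3.58.1, R 4.3.3) by its quasi-likelihood test, TMM factors and group as the only term, for 12505 genes whose average logCPM passed 0. On simulated data with 200 changed genes among 12477 for the siQk against siNC comparison, 100% were recovered and 11.1% of calls were unchanged genes. For standard errors, the absolute log2 fold change was taken over the root of F. Ratios of tags carry exact conditional 95% intervals, for counting error only. Libraries of a group differed by a chi-square per degree of freedom of 36.3 or more, so each counted as 1 replicate. The study describes the libraries of a group as biological replicates of cultured cells, and whether cultures came from separate litters is not given in the sources used here. Gene positions are from RefSeq for GRCm38.p6 (11 of 11 members matched by Entrez identifier, 4 under a newer symbol), and 3'UTRs from GENCODE M21 (GRCm38, the assembly of mm10). Alternatives were DESeq2 1.42.0, other scalings, filters and thresholds, the replicate number as a block, thinning and leaving out libraries.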

Additional observations from a re-analysis of the deposited data

How the results depend on the processing

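The number of members, 11, became 63 with a ratio of 5 to 4 in place of 1.5, 3 with a ratio of 2 (Rmrp, Snap23 and Fkbp7), 20 with a minimum of 1 RPKM and 5 with a minimum of 5 RPKM. Leaving out 1 library gave from 11 to 34, with 34 without siQk replicate 1 and 30 without siQk replicate 3, since fewer libraries then set the limit, and siQk replicate 2 cannot be left out. Division by TMM factors gave 12 members and thinning gave 14, of which 10 were shared in each, Rab7l1 being lost in both. Adding 0.5 to RPKM also lost Fxyd7. After thinning, the rule with siQk replicate 1, an alternative chosen after seeing the data, gave 4 genes in place of 0.

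Whether same-numbered libraries were paired is not given in the sources used here, and the main fit did not pair them. Their deviations from the group means had correlations of -0.0524, -0.131 and -0.332. With 3 libraries per group these cannot decide whether the cultures were paired. With the replicate number as a block, 4 members were called lower (Fxyd7, Snap23, Sepp1 and Rnf165) and 2796 genes were changed, against 1 and 3879. DESeq2 called 3 members lower (Fxyd7, Sepp1 and Rnf165) and the fit without a low count filter also 3 (Fxyd7, Sepp1 and Snap23). Leaving out 1 library gave 1 to 3 members called lower, 2 without siNC replicate 3 (Fxyd7 and Sepp1) and 3 without siQk replicate 2 (Fxyd7, Snap23 and Rnf165), and 2478 to 3704 changed genes, the lowest without siQk replicate 1. Qk kept its call in each of these fits, with log2 fold changes from -2.29 to -1.76 and FDR at most 0.0194. The median shares kept moved by less than their spread in the settings run. The count of members with siQk replicate 1 above replicate 3 stayed at 7 with division by TMM factors, the only alternative run for it. The causes were not tested.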
